A study of Mus musculus with 5 samples.

Results

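The immediate early genes are a set of genes that cells switch on within minutes of a stimulus, without first making protein. The 10 genes described here were Fos, Fosb, Fosl2, Jun, Junb, Egr1, Egr2, Arc, Nr4a1 and Ier2, chosen by name out of 22380 protein-coding genes in the annotation. They were chosen with earlier results of these data known, so every share of the 10 given below is a description and not a test. The data were peak lists of H3K9ac, histone H3 acetylated at lysine 9. A peak belonged to a gene when its called centre lay no more than 10 kb from any annotated transcript start of that gene. By this rule the 10 genes held 52 of the 34286 peaks in the list from DOP-treated cells and 34 of the 33355 peaks in the list from untreated cells.

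The cells were STHdh Q111 cells, conditionally immortalized striatal progenitors of the mouse that carry mutant huntingtin on both alleles (STHdhQ111/Q111, strain C57BL/6). Every sample came from this 1 cell line, and all cells were kept without serum for 24 h. The treated group (2 samples) received 4-deoxypyridoxine hydrochloride (DOP), an inhibitor of the enzyme SPL, at 4 mM in that medium. The untreated group (2 samples) received vehicle, and 1 IgG sample of untreated cells was not analysed here. The authors deposited 1 peak list per condition, so that no value below carries a replicate error and no test between conditions was possible. All differences are differences between these 2 lists.

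H3K9ac is a mark of active promoters, and it lies mostly on the nucleosomes that flank the start site. The immediate early genes are known for promoters that are held ready before the stimulus arrives. Serum and synaptic activity act on them through SRF with its ternary complex partners, which bind the CArG box, and through CREB, which binds the cyclic AMP response element (CRE). In striatal neurons these genes follow dopamine and glutamate signals, and several of their products are transcription factors that act on later genes. Transcript levels of the 10 genes were not analysed here.

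The promoters of 4 members are shown first, because they hold the letters of the CArG box or the CRE. Egr1 also holds CArG boxes and is not shown. They were read 5′ to 3′ on the strand of the gene from the mm9 assembly. In the Fos, Fosb and Egr2 sequences capitals mark CArG boxes and GC boxes (GGGCGG on either strand), and in the Ier2 sequence they mark the CRE. The Fos bases are chr12:86814520-86814819 (plus strand), which end 21 bases before the start. The Fosb bases are chr7:19895395-19895694 (minus strand), the Egr2 bases are chr10:67000317-67000616 (plus strand, before an internal start of the gene model), and the Ier2 bases are chr8:87186752-87186901 (minus strand). Each of these 3 ends at the base before the start.
Fos: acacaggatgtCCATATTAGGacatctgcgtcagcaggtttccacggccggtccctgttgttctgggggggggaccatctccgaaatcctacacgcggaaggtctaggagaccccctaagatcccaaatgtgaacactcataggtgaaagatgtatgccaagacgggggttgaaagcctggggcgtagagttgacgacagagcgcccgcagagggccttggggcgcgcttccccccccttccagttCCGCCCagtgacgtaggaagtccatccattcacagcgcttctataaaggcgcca
Fosb: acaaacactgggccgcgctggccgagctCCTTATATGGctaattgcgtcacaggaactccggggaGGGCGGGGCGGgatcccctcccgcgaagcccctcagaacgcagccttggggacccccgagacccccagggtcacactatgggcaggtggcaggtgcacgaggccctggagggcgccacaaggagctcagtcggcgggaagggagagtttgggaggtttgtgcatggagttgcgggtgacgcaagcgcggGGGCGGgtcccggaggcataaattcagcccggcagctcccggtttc
Egr2: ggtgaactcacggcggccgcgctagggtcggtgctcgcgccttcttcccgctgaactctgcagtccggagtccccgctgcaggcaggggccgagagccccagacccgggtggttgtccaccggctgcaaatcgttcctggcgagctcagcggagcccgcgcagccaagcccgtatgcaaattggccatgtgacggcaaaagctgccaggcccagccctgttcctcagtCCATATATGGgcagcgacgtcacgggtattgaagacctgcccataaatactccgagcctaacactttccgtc
Ier2: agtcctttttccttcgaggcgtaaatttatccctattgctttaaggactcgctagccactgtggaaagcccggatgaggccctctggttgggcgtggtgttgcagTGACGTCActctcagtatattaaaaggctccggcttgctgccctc

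In these stretches the CArG box of Fos began 309 bases before the start, that of Fosb 272 bases, and that of Egr2 72 bases. The CRE of Ier2 began 45 bases before the start. None of these CArG boxes or the CRE lay inside an H3K9ac interval of either list. The nearest DOP-treated centre was 195 bp from the Fos box, 154 bp from the Fosb box and 118 bp from the Egr2 box, and the nearest untreated centres were 174, 1906 and 157 bp away. Of these 3, the Fosb box was the one with no untreated centre close by. At Egr1, 5 CArG boxes began 83 to 407 bases before the start, with DOP-treated centres 255 to 579 bp and untreated centres 318 to 642 bp away. A match of letters is a description and does not show that a factor was bound.

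All 10 genes had at least 1 peak in both lists, whereas 57.7% of all protein-coding genes had a DOP-treated peak and 56.9% an untreated peak in the same window. The DOP-treated list held more peaks than the untreated list at 7 of the 10 genes, fewer at 1 (Fosl2) and equal numbers at 2 (Egr2 and Nr4a1). Among the 13272 genes that either list marked, 32.5% had more DOP-treated peaks and 28.5% had fewer. At least 3 more DOP-treated peaks were found at Fosb, Jun, Arc and Ier2, which is 4 of 10, against 2.37% of all genes with a peak. The 2.37% was not matched for peak number, and its base includes genes with fewer than 3 DOP-treated peaks, which could not reach this difference. Among peaks in the top 50% of each list by score, the difference was 3 at Jun, 2 at Ier2 and 0 at Fosb and Arc, and the 10 genes held 28 DOP-treated and 25 untreated peaks. None of the 10 had at least 3 fewer, against 1.99% of all genes. The median was 4 DOP-treated and 2 untreated peaks per member, and 3 in each list for all genes with a peak in that list. Since earlier results were known when the 10 genes were chosen, these contrasts with all genes describe the 10 only.

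**Figure D1:**
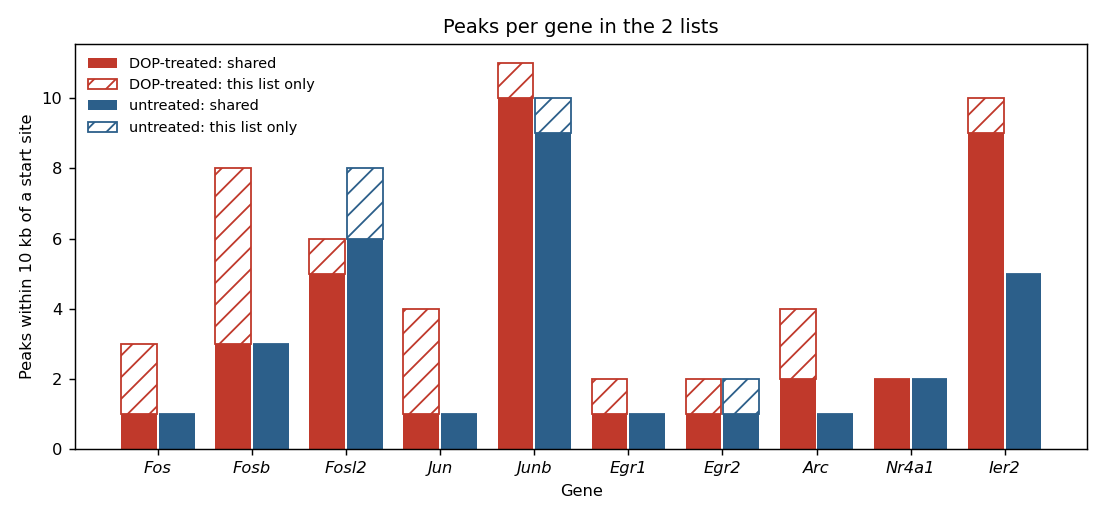
Bars give the number of peaks centred within 10 kb of a start site (vertical axis) for each of the 10 genes, red for the DOP-treated and blue for the untreated list, with filled parts for peaks that overlap a peak of the other list and hatched parts for peaks found in 1 list only. Fosb (8 against 3) and Ier2 (10 against 5) show the widest gaps, the hatched DOP-treated part is largest at Fosb, and Fosl2 alone has a shorter DOP-treated bar.

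The difference of 5 peaks at Fosb and Ier2 placed them among the 22 genes (0.166% of 13272) with at least 5 more DOP-treated peaks. The 13272 include genes with fewer than 5 DOP-treated peaks, which could not reach this difference. The same 22 genes included Hes1, a repressor downstream of Notch, with 11 against 5 peaks, and Klf3, a zinc-finger repressor, with 9 against 3. Both were named after their values were seen.

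**Figure D2:**
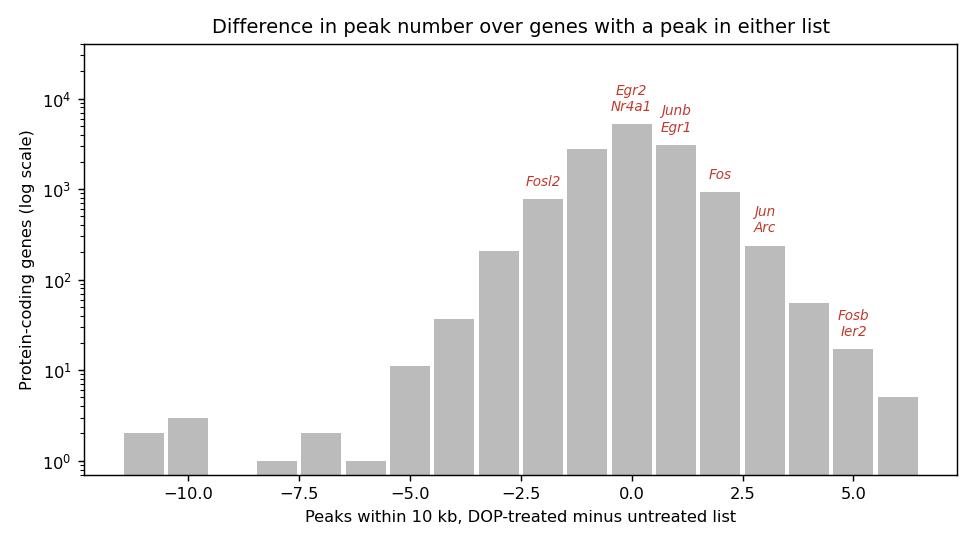
Bars count protein-coding genes (vertical axis, log scale) by the number of DOP-treated minus untreated peaks within 10 kb (horizontal axis), for the 13272 genes that either list marked, and the 10 genes are named above their bars. Fosl2 is the only one of the 10 to the left of 0, and Fosb and Ier2 sit at 5, where 17 genes are counted.

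Peaks were called shared when their intervals had 1 bp or more in common. Of the 52 DOP-treated member peaks, 35 were shared and 17 were in the DOP-treated list only, a share of 32.7% (95% Wilson confidence interval 21.5% to 46.2%, counting error only). This interval treats the peaks as independent, although 5 of the 17 lay at Fosb and 3 at Jun. Over all DOP-treated peaks near a gene the share was 16.2%. Of the 34 untreated member peaks, 4 were in the untreated list only, which is 11.8% (4.67% to 26.6%), against 13.3% of all untreated peaks near a gene. The DOP-only peaks were spread over 9 of the 10 genes, all but Nr4a1. Of the 17, 11 lay upstream of the start, as did 26 of all 52 DOP-treated member peaks. These shares were not computed over all genes or all DOP-only peaks near genes, so they describe the members only. Most of the 17 DOP-only member peaks were in regions that the untreated list also marked, since 9 of them had an untreated centre within 1 kb. The other 8 did not, and for all DOP-only peaks near genes this share was 34.2%.

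The DOP-only member peaks were mostly weak, and in the top 50% of the lists 5 DOP-only and 4 untreated-only member peaks were left. The score is the authors' value and its definition was not given in the sources used here, so each peak was placed by its percentile within its own list. The DOP-only member peaks had a median percentile of 26.3, near the 22.0 of all DOP-only peaks close to genes. The shared DOP-treated member peaks had a median of 63.9, against 61.3 for all shared peaks close to genes. The 4 untreated-only member peaks had a median of 84.9, against 22.6 for all untreated-only peaks close to genes. They belonged to Fosl2 (2), Junb and Egr2, and the Egr2 peak was nearest to the start of Ado. Their nearest DOP-treated centres were 225 to 800 bp away, so that 0 were left with sharing by centres within 1 kb.

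**Figure D3:**
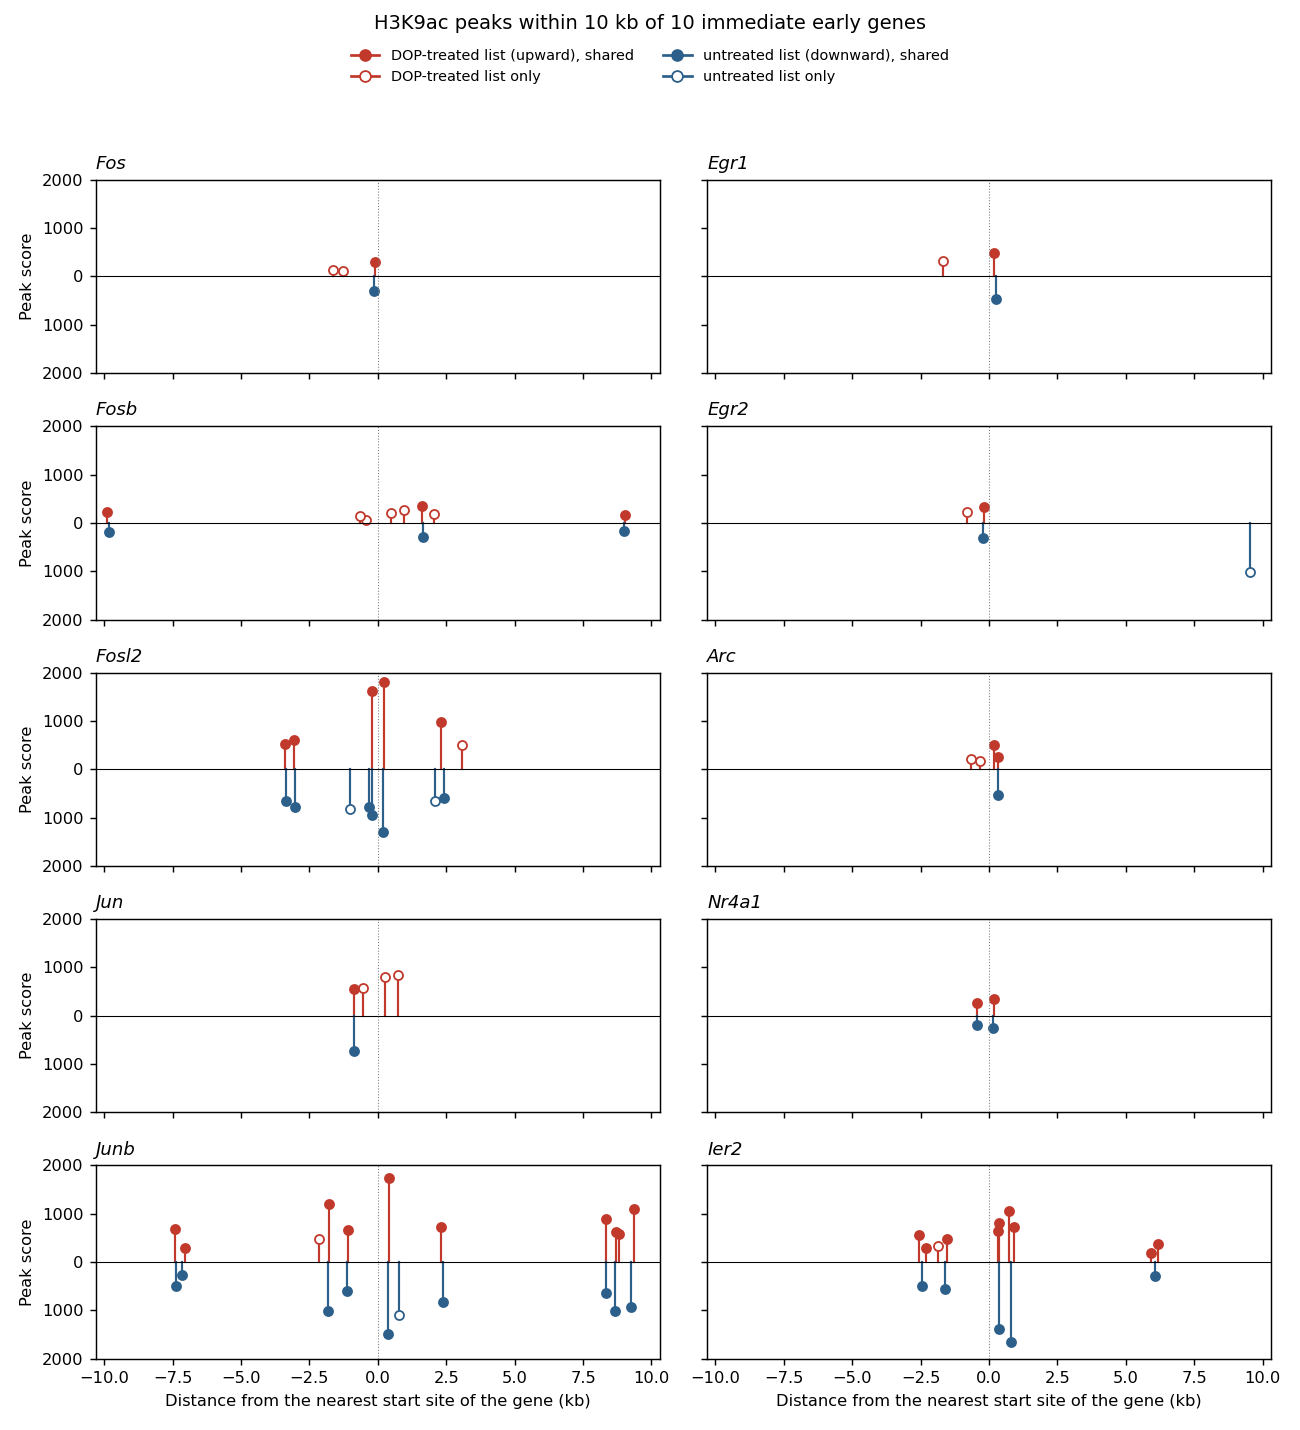
Each panel shows 1 gene, with distance from the nearest start site of the gene in kb on the horizontal axis and the peak score on the vertical axis, red stems upward for the DOP-treated and blue stems downward for the untreated list, and open circles for peaks found in 1 list only. Open red circles gather around the start sites of Fosb and Jun and upstream of Fos, Egr1 and Arc, while Nr4a1 has filled circles alone.

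The FOS family supplies the partners of JUN proteins in the AP-1 transcription factor. Fos itself (chr12:86814840-86818223, plus strand, mm9) is the classic reporter of neuronal activity. It had 1 untreated peak, centred 130 bp before the start with a score of 300, at the 38.1 percentile of its list. The DOP-treated list had a peak at nearly the same place, 109 bp before the start, with a score of 290 (35.2 percentile). The promoter peak of Fos was thus alike in both lists. The DOP-treated list held a further pair of low-scoring peaks upstream, at 1650 bp (score 125.1) and 1282 bp (119.9) before the start, and the nearest untreated centre was 1520 and 1152 bp away from them. Chained together as 1 region (chr12:86813091-86813658), they formed 1 of only 2 regions of the 10 genes with no untreated peak inside.

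Fosb (chr7:19888070-19895394, minus strand), whose truncated product accumulates in striatal neurons under repeated stimulation, had 8 DOP-treated and 3 untreated peaks. No untreated peak lay within 1 kb of its start, whereas 4 DOP-treated peaks did, with scores of 261.2, 208.8, 63.9 and 143.1. These 4 lay 956 and 475 bp after the start, in an intron and the 5′ UTR, and 422 and 642 bp before it. A DOP-only peak with a score of 192.6 also lay 2046 bp after the start, in an intron. The shared peaks were farther out or in the gene body, and their scores were 170, 349.4 and 228 in the DOP-treated list and 162, 286 and 179 in the untreated list. All of the Fosb peaks were in the lower part of their lists, and the highest DOP-treated percentile was 42.1.

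Fosl2 (chr5:32438845-32460204, plus strand), which encodes FRA-2, was the exception among the 10 genes, with 6 DOP-treated and 8 untreated peaks. Its start carried the strongest DOP-treated peak of the set, 229 bp into the 5′ UTR, with a score of 1806.9 (98.5 percentile), where the untreated peak had 1303.1 (94.3 percentile). Just upstream, 1 DOP-treated peak of 1623.1 stood over 2 overlapping untreated peaks of 785.1 and 935.8. The same stretch was thus split into more calls in the untreated list. Untreated-only peaks lay 1016 bp before the start (828.1) and 2083 bp after it (648.8), and a DOP-only peak lay 3077 bp after it (493). A pair of shared peaks upstream was nearest to the start of another gene model, Gm10463.

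The JUN family contains the proteins that can bind AP-1 sites on their own or with FOS partners. Jun (chr4:94715725-94718913, minus strand) had the highest ratio of summed scores among the 10. Its 4 DOP-treated peaks lay 725 and 260 bp after the start, in the 5′ UTR, and 555 and 860 bp before it, with scores of 838.9, 793.1, 578 and 551. The untreated list had 1 peak there, 857 bp before the start, with a score of 722.2. The start of Jun and its 5′ UTR thus had no untreated call, and the nearest untreated centre was 1633, 1168 and 302 bp from the 3 DOP-only peaks. These DOP-only peaks were not weak, at percentiles of 80.8, 78.4 and 65.0. Of all DOP-treated peaks near genes with percentiles from 60 to 85, 4.74% (of 8242) were in the DOP-treated list only. This range was not planned and encloses the 3 DOP-only Jun peaks, so the share is a description.

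The score of the untreated Jun peak was itself unusual for its list. Scores had at most 1 decimal, and where a region held a single peak with no other centre within 1 kb, the score was a whole number in 97.9% of 5899 untreated cases. The Jun peak, at 722.2, was among the 123 (2.09%) that were not. Where a region held several peaks and at least 1 score was not whole, the scores added up to a whole number in 91.6% of untreated regions. The 4 DOP-treated peaks of Jun added up to 2761. Whether other untreated calls at Jun are missing from the list used here was not tested, and the absence of calls at its start and its ratio of summed scores hold for the list as used.

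Junb (chr8:87500811-87502617, minus strand), often an antagonist of JUN, had the most peaks, 11 in the DOP-treated and 10 in the untreated list. Its highest peak lay in the coding exon 418 bp after the start, with a score of 1745 (98.2 percentile) in the DOP-treated list, and at 373 bp with 1494.2 (96.3 percentile) in the untreated list. An untreated-only peak stood beside it at 767 bp (1083.8), and a DOP-only peak lay 2164 bp upstream (478.7). Over the 10 kb window the locus looked much the same in both lists. Within 1 kb of the start, however, Junb had 1 DOP-treated peak with 1745 and 2 untreated peaks with a summed score of 2578, a ratio of 0.677. Of its peaks, 6 in the DOP-treated and 5 in the untreated list were nearest to the starts of Rnaseh2a, Prdx2 or Hook2, which encode a subunit of ribonuclease H2, a peroxiredoxin and a Hook family adaptor. Counting only peaks nearest to the Junb start left 5 in each list.

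The EGR genes encode zinc-finger transcription factors. Egr1 (chr18:35020861-35024638, plus strand), which is induced during synaptic plasticity, had a shared peak in its 5′ UTR, 177 bp after the start with a score of 482 in the DOP-treated list and at 240 bp with 457 in the untreated list. Their percentiles of 56.5 and 56.0 were nearly equal. The DOP-treated list also had a peak 1700 bp upstream (chr18:35019062-35019261, score 318, 38.5 percentile). With the nearest untreated centre 1940 bp away, it was the second of the 2 regions without an untreated peak.

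Egr2 (chr10:66998223-67004936, plus strand), a factor of hindbrain and Schwann cell development, had 2 peaks in each list, yet not the same ones. The shared peak lay close to an internal start, 185 bp before it with a score of 328 in the DOP-treated list and 224 bp before it with 317 in the untreated list. A DOP-only peak of 220 lay 803 bp before a start. The untreated-only peak was 9544 bp away, had a score of 1015.8 and was nearest to Ado, a thiol dioxygenase gene. The DOP-treated list had a peak of 1753 at 10072 bp, just outside the window, and the untreated list one of 1578.2 at 10061 bp. At Egr2 itself the difference was therefore 1 DOP-treated peak, and the untreated-only peak belonged to the neighbour.

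Nr4a1 (chr15:101097277-101105223, plus strand) encodes an orphan nuclear receptor of the NUR77 family. It had the same 2 peaks in both lists. Upstream of the start, the scores were 260 at 444 bp in the DOP-treated list and 201 at 440 bp in the untreated list. In the gene, within an intron, they were 343 at 166 bp and 248 at 157 bp. Both peaks stood higher in the DOP-treated ranking, by 6.17 and 9.85 percentile points.

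Arc (chr15:74499513-74503000, minus strand) encodes a cytoskeletal protein of the synapse and is the one effector among the members known for acting at dendrites. The untreated list had 1 peak in the coding exon, 310 bp after the start, with a score of 538 (63.6 percentile). In the DOP-treated list the same stretch held 2 overlapping peaks, at 332 bp (261.8) and 198 bp (497.2). The same stretch of Arc thus held 1 untreated and 2 DOP-treated centres. A pair of DOP-only peaks stood upstream, at 341 bp (174.7) and 665 bp (218.3) before the start.

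Ier2 (chr8:87185230-87186751, minus strand), a short gene for a nuclear protein with a role in transcription, had 10 DOP-treated and 5 untreated peaks, but only 1 DOP-only peak, 1861 bp upstream with a score of 342.7. The other 9 DOP-treated peaks overlapped the 5 untreated ones, so that the same stretches held more calls. Over the gene body, the untreated list had 2 peaks of 1652 and 1384 (97.5 and 95.2 percentiles), at 814 and 371 bp. The DOP-treated list had 4 peaks there, of 729.6, 1067.3, 816.5 and 639.5, at 895, 721, 375 and 312 bp. Summed within 1 kb of the start, the scores were 3252.9 over 637 bp in the DOP-treated list and 3036 over 400 bp in the untreated list. Each of these 4 DOP-treated peaks ranked below its untreated partner, while the summed scores of the stretch were nearly equal in both lists.

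Chaining member peaks with centres within 1 kb gave nearly equal numbers of regions. The 52 DOP-treated peaks formed 22 regions and the 34 untreated peaks formed 21. An untreated member peak lay inside 20 of the 22 DOP-treated regions, and a DOP-treated member peak inside 20 of the 21 untreated regions. The exception in the untreated list was the peak next to Ado, whose neighbours lay outside the 10 kb window. Chained with them, it formed a region of 1531 bp that held 2 DOP-treated peaks. All 21 untreated regions then held a DOP-treated peak. The median region length in the DOP-treated list was 610.5 bp by either rule. The untreated median was 200 bp for peaks in the window and 417 bp with those outside it included. A region with a peak of both lists was not equally covered by them. The region at Jun spanned 1836 bp in the DOP-treated and 200 bp in the untreated list, the region over the Fosb start and gene body 2888 bp against 200 bp, and the region at Arc 1215 bp against 200 bp.

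The strength of the shared peaks did not move to 1 side. Of the 35 shared DOP-treated peaks, 17 had a higher percentile than the untreated partner and 18 a lower one, which is 48.6% higher (33.0% to 64.4%), against 54.1% of all shared peaks near genes. The median difference was -0.44 percentile points, and over all pairs it was 0.61, with quartiles of -5.15 and 6.45. Several of the lower values came from Ier2, Arc and Junb, where more than 1 DOP-treated peak had the same untreated partner. At Fosb and Nr4a1 the shared peaks with one exception (the Fosb peak near 9 kb) ranked higher in the DOP-treated list, and at Jun and Fos they ranked lower.

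Because the number of calls in a stretch differed between the lists, the scores were also added up per gene, as a choice made after the data were seen. The ratio of DOP-treated to untreated sums was above 1 at 8 of the 10 genes. The share of all genes above 1 was not computed, but their median places most of them above 1 too. The median ratio was 1.55 for the 10 genes, against 1.07 over the 12375 genes with a peak in both lists. For those genes the 5th and 95th percentiles of the ratio were 0.810 and 1.55. The sums were at least 2-fold higher at Jun, Fosb and Arc, which is 3 of 10 against 1.15% of all such genes, and at least 2-fold lower at Egr2, against 0.436%. A sum grows with the number of calls, so the covered length and mean score are given with it.

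The Jun sum was 2761 against 722.2, a ratio of 3.82 (1.93 on the log2 scale), over 800 bp against 200 bp, and the mean scores were 690 and 722. At Fosb it was 1617 against 627, a ratio of 2.58, over 1600 bp against 600 bp, with means of 202 and 209. At Arc it was 1152 against 538, a ratio of 2.14, over 734 bp against 200 bp, with means of 288 and 538. The higher sums of these genes went with more covered bases and with means that were lower in the DOP-treated list.

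At Fos (535 against 300, over 600 bp against 200 bp) the ratio was 1.78, and at Egr1 (800 against 457, over 400 bp against 200 bp) it was 1.75. Both rested on the upstream DOP-only peaks, since within 1 kb of the start the ratios were 0.967 and 1.05. Nr4a1 (603 against 449) had a ratio of 1.34 with 400 bp covered in each list, and was the member whose sum was higher over an equal length. Ier2 (5487.9 against 4377, over 1837 bp against 1000 bp) had 1.25, Junb (8995.8 against 8332.8, over 2096 bp against 2000 bp) 1.08, and Fosl2 (6038.8 against 6510.1, over 1200 bp against 1501 bp) 0.928. The genes with the highest sums thus had the ratios closest to 1, although within 1 kb of the start that of Junb was 0.677. The ratio of Egr2 was 0.411 (548 against 1332.8, 400 bp in each list), and without the peak next to Ado, within 1 kb of its starts, it was 1.73 (548 over 400 bp against 317 over 200 bp).

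**Figure D4:**
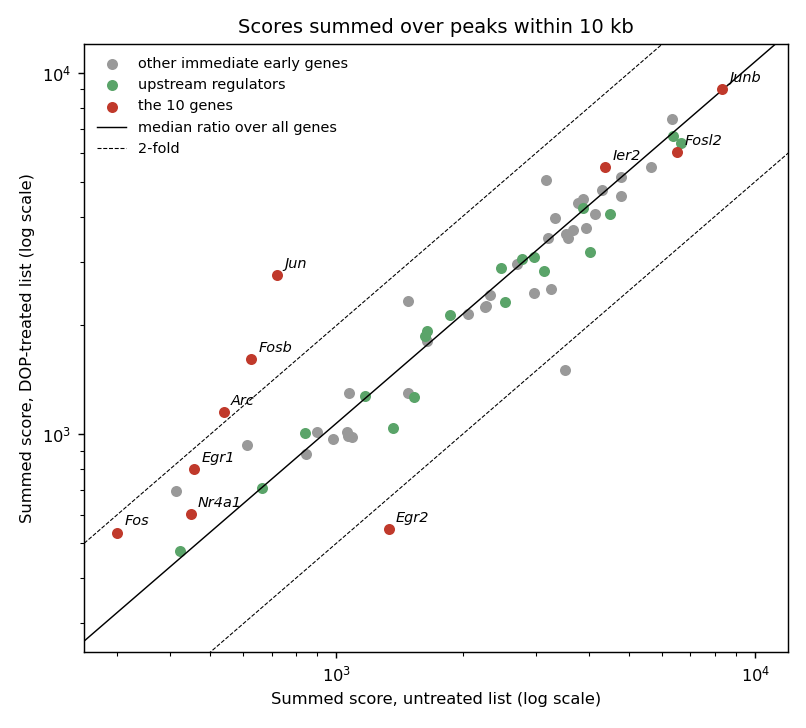
Points give the scores summed over peaks within 10 kb in the untreated list (horizontal axis, log scale) and the DOP-treated list (vertical axis, log scale), red for the 10 genes, grey for other immediate early genes and green for upstream regulators, with a solid line at the median ratio of all genes (1.07) and dashed lines at 2-fold. Jun (ratio 3.82), Fosb (2.58) and Arc (2.14) lie above the upper dashed line, Egr2 (0.411) lies below the lower one, and Junb, Fosl2 and Ier2 lie near the solid line at the upper right.

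The DOP-only peaks upstream of 4 genes are shown next, because they differ among themselves in base composition. They make up only a part of the differences described above. They are the highest-scoring upstream DOP-only peaks of Jun (chr4:94719369-94719568), Fosb (chr7:19895937-19896136), Fos (chr12:86813091-86813290) and Arc (chr15:74503566-74503765), read 5′ to 3′ on the strand of the gene (mm9, plus strand for Fos and minus strand for the others). Capitals mark CpG dinucleotides.
Jun: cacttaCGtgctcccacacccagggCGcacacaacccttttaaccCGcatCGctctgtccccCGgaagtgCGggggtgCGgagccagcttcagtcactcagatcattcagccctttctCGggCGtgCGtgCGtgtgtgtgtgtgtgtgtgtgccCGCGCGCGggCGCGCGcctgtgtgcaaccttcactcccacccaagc
Fosb: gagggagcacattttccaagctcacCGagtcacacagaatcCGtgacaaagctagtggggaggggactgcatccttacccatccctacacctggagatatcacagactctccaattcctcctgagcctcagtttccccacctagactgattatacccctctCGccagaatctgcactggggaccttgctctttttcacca
Fos: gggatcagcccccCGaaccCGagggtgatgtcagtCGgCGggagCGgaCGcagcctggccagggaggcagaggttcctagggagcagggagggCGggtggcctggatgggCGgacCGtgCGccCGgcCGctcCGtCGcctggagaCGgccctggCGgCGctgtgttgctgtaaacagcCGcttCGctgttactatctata
Arc: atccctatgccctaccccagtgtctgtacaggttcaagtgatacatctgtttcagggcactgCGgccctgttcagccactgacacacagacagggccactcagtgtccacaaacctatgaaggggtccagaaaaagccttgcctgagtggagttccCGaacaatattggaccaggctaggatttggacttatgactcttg

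The Jun and Fos intervals held 18 and 19 CpG dinucleotides, and the Fosb and Arc intervals 3 and 2. These 4 DOP-only calls thus included both CpG-rich and CpG-poor stretches, and the CpG-rich Fos interval was the farthest of the 4 from its start. The upstream DOP-only peaks of Junb (478.7), Ier2 (342.7), Egr1 (318) and Egr2 (220) are not shown. Their scores were above those of the Fosb, Fos and Arc intervals. Over all 17 DOP-only member peaks the median GC content was 54.5%, and over the 35 shared ones it was 61.5%. The same order was seen over all peaks near genes, with 53.0% for DOP-only and 62.5% for shared peaks.

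By position, 24 of the 52 DOP-treated member peaks lay upstream of the gene, 8 in introns, 8 downstream, 6 in coding exons, 5 in a 5′ UTR and 1 in a 3′ UTR. In the untreated list 15 of 34 were upstream, 7 downstream, 5 in introns, 4 in coding exons, 2 in a 5′ UTR and 1 in a 3′ UTR. Within 1 kb of a start there were 25 DOP-treated and 14 untreated peaks. The same positions were not counted over all peaks near genes, so these counts describe the members only.

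The promoters of the 10 genes, from 250 bases before to 50 bases after the most upstream start, were rich in GC. Their median GC content was 65.7%, against 55.0% over all 22380 genes and 59.7% over genes with a peak. The ratio of observed to expected CpG was 0.777, against 0.534 and 0.739. Nr4a1 had the highest GC content (72.3%) and Ier2 the lowest (53.3%).

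Motifs were searched on both strands of this window, and matches to different motifs may overlap. The CArG box, a run of A and T between CC and GG, was found at 1 of 10 members (Egr1) and in 1.47% of all promoters. The CRE (TGACGTCA) was found at 1 member (Ier2) and in 2.32%, AP-1 (TGANTCA) at 0 and in 6.93%, EGR (GCGTGGGCG) at 0 and in 0.782%, and the GC box at 7 and in 43.4%. With 500 bases before the start, a window chosen after the data were seen, CArG boxes were found at 3 members (Fos, Fosb and Egr1) and in 2.83% of all promoters. The internal starts of Egr2 made it 4 members. The 2.83% covers only the most upstream start of each gene, so the count of 4 has no like share beside it. With 500 bases the GC box was found at 9 members and in 47.3% of all promoters. Inside the peak intervals, a GC box lay in 13 of the 52 DOP-treated and 12 of the 34 untreated member peaks, against 28.5% and 29.3% of all peaks. The EGR motif lay in the shared peak 2317 bp after the start of Junb.

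A wider list held 38 other immediate early genes. In each list 35 of the 38 had a peak, and the 3 without one were Egr4, Npas4 and Rgs2, a zinc-finger factor, an activity-dependent neuronal factor and a regulator of G protein signalling. More DOP-treated peaks were counted at 12 genes, fewer at 13 and equal numbers at 10, with 152 peaks against 157 in all. The highest DOP-treated scores were at Jund, a JUN family member (2129.6), Per1, a clock gene (1792.7), and Gadd45b, a stress gene (1759). In the untreated list they were at Tiparp, a member of the PARP family (2128.4), Gadd45b (1590.1) and Jund (1572.9). The median ratio of summed scores was 1.04 for 35 genes. In the wider list more and fewer DOP-treated peaks were thus about equally frequent. At least 3 more were counted at 2 genes (Zfp36 and Tiparp) and at least 3 fewer at 3 (Dusp6, Ier3 and Klf10). These 5 were named after their values were seen.

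The 20 upstream regulators, the SRF, ternary complex, CREB, MEF2 and MAP kinase genes that act on these promoters, had similar numbers of peaks in both lists. A peak was found at 20 of them in the DOP-treated and 19 in the untreated list. The exception was Mef2c, a MEF2 factor, with 1 DOP-treated peak of score 62 (5.07 percentile). More DOP-treated peaks were counted at 6, fewer at 6 and equal numbers at 8, and the median ratio of sums was 1.07. The highest scores were at Elk3, a ternary complex factor (1818.1), Mef2d (1792.5) and the CREB coactivator Crtc2 (1719) in the DOP-treated list, and at Mef2d (1787.9), Crtc2 (1720.4) and the SRF coactivator Mkl2 (1717.5) in the untreated list.

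Of markers of the labelled cell type and of other cell types, the progenitor markers Nes and Sox2 had no peak in either list and Vim had 3 DOP-treated and 4 untreated peaks. The neuronal markers Rbfox3, Drd1a and Drd2, the astrocyte markers Gfap and Aqp4, and Ptprc of blood cells had none. Ppp1r1b had 4 in each list, Mbp 2 and 0, Mog 1 and 2, and Cd68 4 in each, none of the last nearest to its own start. The median score over all peaks was 418.7 in the DOP-treated and 399.8 in the untreated list, and the ratio of the lists' summed scores was 1.06. The number of reads behind each list is unknown.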

How the data were processed

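H3K9ac ChIP-seq was made from 2 DOP-treated and 2 untreated samples of STHdh Q111 cells. The methods of the study name Bowtie 2, mm9 and GPS, whereas the submitters' processing notes list BWA 0.7.10 and mm9. How the samples of a condition were combined, whether the IgG sample was used, and the threshold are not given in the sources used here. The authors deposited 1 peak list per condition, with intervals of 200 bp around the called centre and a score, whose definition the lists do not give. The lists are longer than the peak sets counted in the study's methods, so they may not be the same sets. Depth per sample is unknown, and Wilson intervals (95%) cover counting error only. They treat peaks of the same gene as independent.

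Protein-coding genes, starts and exons were taken from GENCODE vM1 on NCBIM37 (mm9). Percentiles were computed within each list. Peaks were shared when intervals overlapped by at least 1 bp, and each DOP-treated peak was paired with the overlapping untreated peak of nearest centre. All 10 members were named. Of the wider and regulator lists, genes with no peak, with a peak in 1 list only, or with the 3 highest-scoring peaks per list were named. The members and lists were chosen with earlier results of these data known. Alternatives were windows of 1, 2 and 20 kb, the most upstream start, peaks nearest to a member, scores of at least 100, the top 50%, other rules of sharing, and chaining within 1 kb. The functions were tested on simulated data, and 9 of 9 planted answers were recovered. The software was Python 3.11.15, matplotlib 3.10.9, scipy 1.17.1, numpy 2.4.6 and pandas 2.3.3.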

Additional observations from a re-analysis of the deposited data

How the results depend on the processing

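No paired analysis was possible because each condition was deposited as 1 peak list that carries no replicate, and for the same reason no replicate could be left out in turn. Of 190 values recomputed under an alternative, 136 stayed within the limits set for no change (1.5 times for counts), 52 moved and 2 reversed. For median percentiles the limit was a wide interval of ranked values, so that 42.1 within 2 kb counted as unchanged from 56.4 in the DOP-treated list. The median percentile does not depend on the rule of sharing, so its values under other rules of sharing could not change. The count of unchanged values is therefore no measure of robustness.

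The number of member peaks was 25 in the DOP-treated and 14 in the untreated list within 1 kb, 33 and 19 within 2 kb, and 22 and 21 after chaining. Within 20 kb they numbered 67 and 52, and in the top 50% 28 and 25. Peaks in the DOP-treated list only numbered 10 within 1 kb, 5 in the top 50% and 8 with sharing by centres within 1 kb. Peaks in the untreated list only numbered 4 in the top 50%, 1 within 1 kb, 2 within 2 kb, 8 within 20 kb, 7 with reciprocal overlap of 50%, and 2 and 0 with sharing by centres within 500 bp and 1 kb. In the top 50%, 6 members kept a DOP-treated peak, the median percentile of these peaks was 71.9, and the median per member was 1 in both lists. The median per member was 2 DOP-treated and 1 untreated within 1 kb, 1 untreated within 2 kb and 4.5 untreated within 20 kb. The difference at Ier2 was 2 within 1 kb and in the top 50%, where it was 0 at Fos, Fosb, Egr1 and Arc and 3 at Jun. Junb reversed, with 1 more DOP-treated peak as reported and a difference of -1 within 1 kb and within 2 kb. The number of members with more DOP-treated peaks was 3 in the top 50%, 5 within 1 kb, 7 within 2 kb, 6 within 20 kb and 8 with the most upstream start. The lower count in the top 50% follows from its construction, as the DOP-only peaks of Fos, Fosb, Egr1 and Arc were below it. The causes of the other shifts were not tested.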

Other observations

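Scores that were not whole numbers made up 56.9% of the DOP-treated and 57.7% of the untreated list. Where peaks within 1 kb of each other included such a score, their sum was a whole number in 92.2% of 8203 DOP-treated and 91.6% of 8051 untreated regions, and within 0.1 of one in 98.2% and 98.3%. Among the regions of the 10 genes, the sums that were farther from a whole number were those of a Fosl2 region (1136.8) and a Junb region (723.8) in the DOP-treated list, and of the Jun region (722.2) and a Junb region (1612.8) in the untreated list. This property of the scores was noticed in the data, and the sources used here do not describe it.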
